A study of Mus musculus with 84 samples.

Results

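The glutathione S-transferase (GST) genes described here are the 10 genes Gsta2, Gsta3, Gsta4, Gstm1, Gstm2, Gstm3, Gstp1, Gstt1, Gstt2 and Mgst1, chosen by symbol among the 17695 genes of a mouse liver count table. Of these 10, 9 had a row in the table, Gstm1 was not analysed here, and 8 had a median estimated count above 8 over all mice and were tested among 10415 such genes. The Gstm2 row was at or near 0 in every group, with a highest estimated count of 5.36 in any mouse, and was not among the tested genes. Of the 50-base stretches of the processed pseudogene Gm6665, 53.4% also occurred in Gstm2, and the Gm6665 row had a median estimated count of 815. Which transcripts the Gm6665 reads came from was not tested, so the low row does not show that Gstm2 RNA was absent. Gstm2 summed with pseudogene rows is described below.

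Liver RNA came from 84 male B6C3F1 mice, a hybrid laboratory strain, fed AIN-93G diet with or without an organophosphate pesticide (OPP) for 7 days from 8 weeks of age. The 12 groups of 7 mice were control diet, fenthion (FT) at 2.5, 5, 10 and 20 ppm, methidathion (MT) at 10, 25, 50 and 100 ppm, and parathion (PT) at 20, 40 and 80 ppm. Transcripts were counted with TempO-Seq, an assay that sequences pairs of detector oligos joined where both bind a transcript. Every group drew 2 mice from experimental block 1, 3 from block 3 and 2 from block 4. RNA of 7 mice (2 control, 2 FT 20 ppm, 2 MT 100 ppm and 1 MT 10 ppm) was isolated at the EPA rather than at EA. Total counts lay between 6950381 and 15300589 per mouse. Levels are given in CPM (counts scaled to the library total) and compared within a gene only, since detector oligos differ in yield. Each sample was the liver of 1 mouse, and mouse numbers only name the mice within a group. According to the authors, mice shared cages and whole cages were assigned to diets. The labels do not give the cage, so mice of a group may be cage mates and cage could not enter the model. All 8 hepatocyte markers examined, among them Alb and Ttr, had median counts above 8.

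GSTs join the tripeptide glutathione to reactive compounds so that the conjugates can be exported from the cell. The cytosolic enzymes fall into classes, among them alpha (Gsta genes), mu (Gstm genes), pi (Gstp genes) and theta (Gstt genes), and Mgst1 encodes a membrane-bound enzyme of the endoplasmic reticulum and mitochondria. OPPs with dimethyl groups, such as FT and MT, can pass a methyl group to glutathione, a route known to be less used by diethyl compounds such as PT. Many GST genes are induced through the transcription factor Nrf2 or the nuclear receptors CAR and PXR, and hepatic pi-class GST is known to be higher in male than in female mice.

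Several GST genes are near copies of each other, which bears on the counts of those genes below. Gsta2 (ENSMUSG00000057933, GRCm39 chr9:78238292-78263077, minus strand) and Gsta1 differed at 13 bases of their coding sequences (98% identity), and Gstp1 (ENSMUSG00000060803, GRCm39 chr19:4085405-4088068, minus strand) and Gstp2 differed at 12 of 630 coding bases (98.1% identity). The stretches of 60 coding bases that hold the most differences are shown to let the near copies be compared, with differing bases in capitals. Where the detector oligos of these genes bind was not used here. For Gsta2 and Gsta1 these are bases 451 to 510 counted from the start codon, and for Gstp1 and Gstp2 bases 1 to 60.
Gsta2: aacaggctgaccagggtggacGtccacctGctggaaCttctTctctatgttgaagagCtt
Gsta1: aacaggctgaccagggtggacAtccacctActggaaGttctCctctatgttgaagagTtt
Gstp1: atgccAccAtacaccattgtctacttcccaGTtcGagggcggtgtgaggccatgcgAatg
Gstp2: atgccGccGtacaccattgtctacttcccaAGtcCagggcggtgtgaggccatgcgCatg

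Of the 50-base stretches in the annotated transcripts of Gsta2, 27% also occurred in another gene, as did 38.2% of those of Gstp1 and 25% of those of Gstm3. The share was 0.751% for Gstt2 and 0 for Gsta3, Gsta4, Gstt1 and Mgst1. The authors' counting could split a read between genes. Gsta2, Gstm3 and Mgst1 had a count that was not whole (by over 0.001) in all 84 mice, Gstp1 in 73, Gsta3 in 58 and Gstt1 in 41. Gsta4 and Gstt2 had whole counts in all mice. For Gsta3, Gstt1 and Mgst1, none of whose stretches occurred in another gene, the source of the split counts was not tested. The ratio of the Gstp1 to the Gstp2 count stayed between 2.03 and 2.08 in the 84 mice, so the 2 pi-class rows carried the same information. The ratio of Gsta1 to Gsta2 ranged from 0.240 to 6.28, with a median of 0.904 in control mice and 0.367 at PT 80 ppm.

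**Figure D1:**
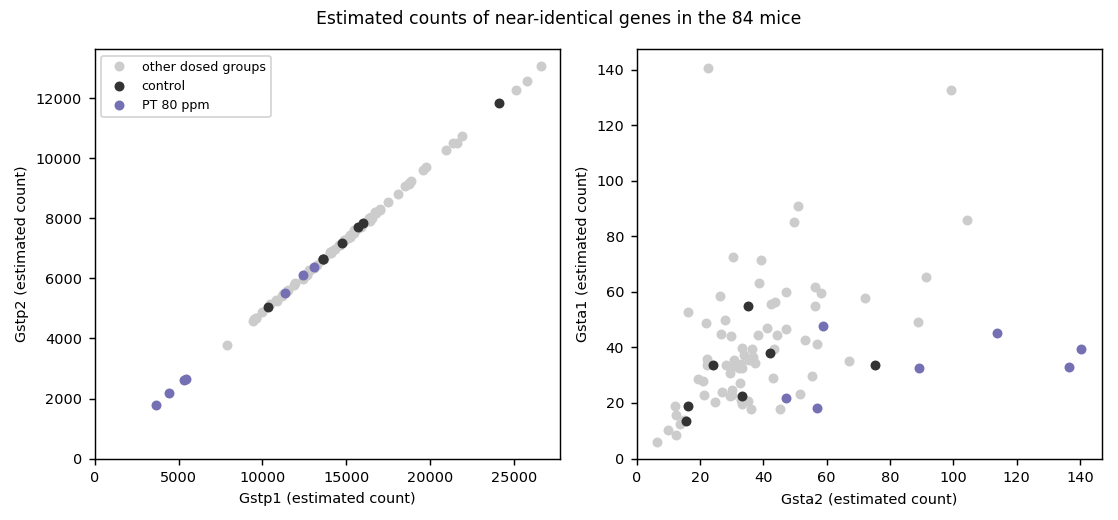
Estimated counts of Gstp2 against Gstp1 (left) and of Gsta1 against Gsta2 (right), 1 point per mouse, with control mice in black, PT 80 ppm mice in purple and other dosed mice in grey. The pi-class points lie on 1 line with ratios of 2.03 to 2.08, whereas Gsta1 and Gsta2 scatter widely.

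The first question was which GST transcripts differed between each dosed group and the control. At PT 80 ppm, 5 of the 8 tested members differed from control, against 18.6% of all 10415 genes (edgeR quasi-likelihood test with block and RNA isolator as covariates, Benjamini-Hochberg adjusted p under 0.05). The theta-class gene Gstt2 and the alpha-class genes Gsta2 and Gsta4 rose, and the pi-class gene Gstp1 and the microsomal Mgst1 fell. Of all genes, 9.75% were called higher and 8.89% lower. Gstt2, Gsta2 and Gstp1 changed at least 2-fold, as did 3.3% of all genes with a call. The median log2 difference was 0.22 over the 8 members and 0.01 over all tested genes. Bulk RNA cannot tell a change of RNA per cell from a change in the number of cells of a type.

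**Figure D2:**
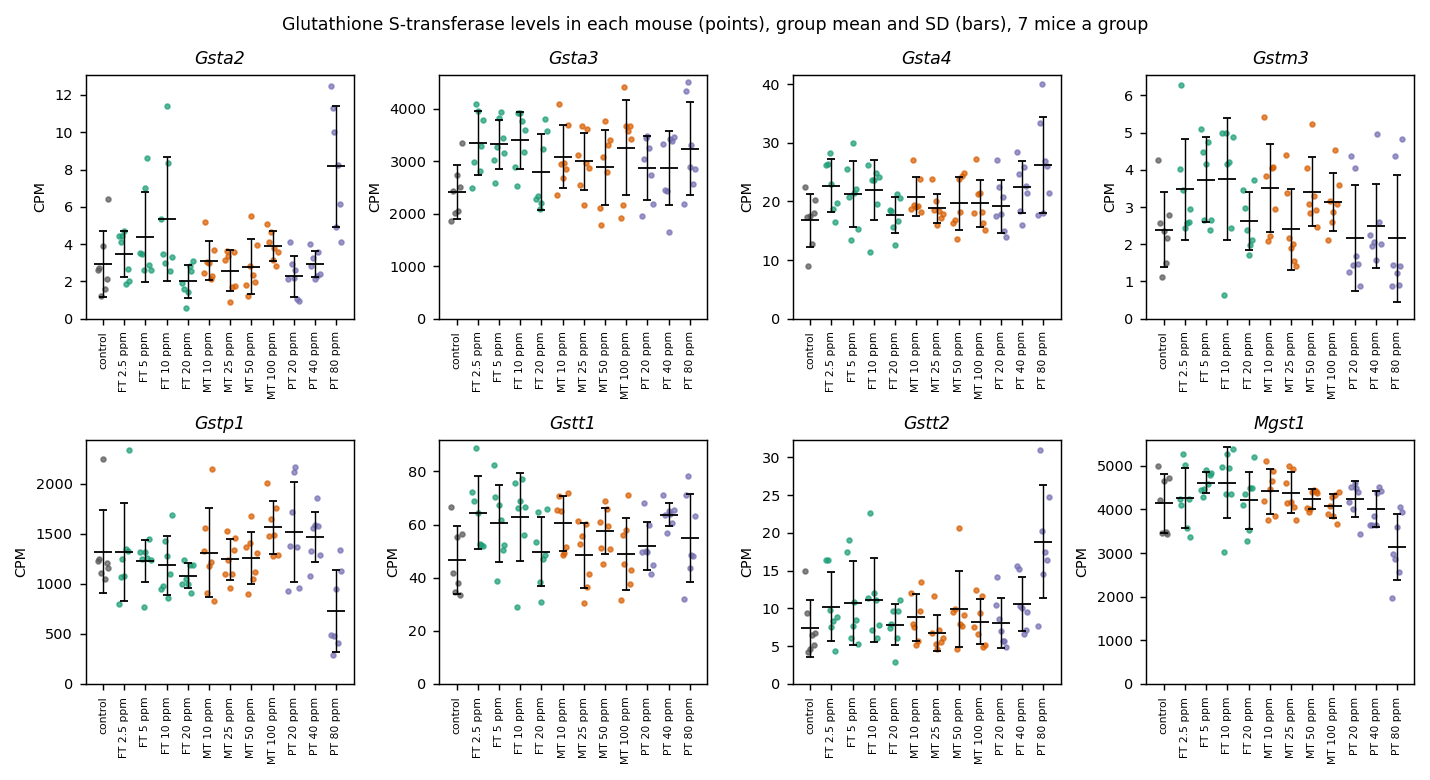
Level of the 8 tested members in CPM (linear axis from 0) in each mouse, by group, with the mean and SD of 7 mice. At PT 80 ppm, Gsta2 and Gstt2 had their highest and Gstp1 and Mgst1 their lowest group mean.

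Gstp1, the hepatic pi-class enzyme, ranged from 1048 to 2248 CPM in the 7 control mice, with a median of 1209. At PT 80 ppm it ranged from 292 to 1340 CPM with a median of 491, and 5 of 7 mice lay below every control mouse. The fitted level was 2.20-fold lower (log2 difference -1.14, SE 0.22, adjusted p = 7.5e-05 by edgeR).

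Mgst1, which reduces lipid peroxides as well as conjugating glutathione, ranged from 3438 to 4990 CPM in control mice (mean 4135 ± 676, SD, n = 7) and from 1962 to 4052 CPM at PT 80 ppm (3136 ± 761). It was 1.5-fold lower (log2 difference -0.58, SE 0.10, adjusted p = 2e-05 by edgeR), with 4 of 7 mice below every control mouse. The groups overlapped.

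Gstt2 had a median of 6.50 CPM in control mice (range 4.28 to 14.9) and of 17.5 CPM at PT 80 ppm (range 7.63 to 30.9). It was 2.50-fold higher (log2 difference 1.32, SE 0.26, adjusted p = 0.00012 by edgeR), and 5 of 7 mice lay above every control mouse. Counts of Gstt2 were whole in all mice, and 0.751% of the 50-base stretches in its transcripts also occurred in another gene.

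Gsta2, an alpha-class enzyme known to respond to electrophiles through Nrf2, had a median of 2.61 CPM in control mice (range 1.22 to 6.43) and of 8.25 CPM at PT 80 ppm (range 4.09 to 12.5). It was 2.38-fold higher (log2 difference 1.25, SE 0.32, adjusted p = 0.0027 by edgeR), with 4 of 7 mice above every control mouse. The Gsta1 row did not pass the test, and with the counts of Gsta1 and Gsta2 summed the log2 difference was 0.80 (adjusted p = 0.086), so the call holds only for reads assigned to Gsta2.

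Gsta4, whose enzyme conjugates the lipid peroxidation product 4-hydroxynonenal, had a mean of 16.8 ± 4.52 CPM (SD, n = 7) in control mice and 26.3 ± 8.23 CPM at PT 80 ppm, and 4 of 7 mice lay above every control mouse. The log2 difference was 0.48 (SE 0.16, adjusted p = 0.03 by edgeR). This call did not survive leaving out any 1 of 5 mice: the adjusted p was 0.096 and 0.12 without PT 80 ppm mice 2 and 3, and 0.056, 0.073 and 0.085 without control mice 2, 3 and 5.

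The other 3 tested members did not pass the test at PT 80 ppm. Gsta3, the most counted alpha-class gene here, had a log2 difference of 0.35 (95% interval 0.05 to 0.64, adjusted p = 0.097 by edgeR), and it passed without control mouse 7 at 0.42 (adjusted p = 0.049 by edgeR) and by limma on log2(CPM + 1) with all mice at 0.43 (adjusted p = 0.048). Gstt1 differed by 0.09 on the log2 scale (95% interval -0.24 to 0.42). Gstm3 differed by -0.32 (95% interval -0.99 to 0.35), at a mean of only 2.40 ± 1.02 CPM in control mice (SD, n = 7). Stretches of Gstm3 also occur in the processed pseudogene Gstm2-ps1, which carried a median estimated count of 6853 against 31.9 for Gstm3. Of the 50-base stretches of Gstm2-ps1, 22.9% also occurred in Gstm3 and 35.4% in Gstm1, which was not analysed here. Which of these transcripts its reads came from was not tested. With Gstm3, Gstm2-ps1 and the pseudogene Gm8834 summed, added after the values were seen, the log2 difference turned to 0.69 (adjusted p = 0.00015), so no direction is given for Gstm3.

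At the other 10 doses no member passed the edgeR test, against 1.57% of all genes at FT 10 ppm, 0.0768% at MT 100 ppm, 0.00960% at FT 2.5 ppm, MT 50 ppm and PT 20 ppm, and 0% at FT 5 ppm, FT 20 ppm, MT 10 ppm, MT 25 ppm and PT 40 ppm. An unadjusted p under 0.05 was found for 4 of 8 members at FT 10 ppm (against 17.7% of all genes), 3 at FT 2.5 ppm (10.7%), 1 each at FT 5 ppm (7.59%), MT 10 ppm (9.97%), MT 25 ppm (5.79%), MT 100 ppm (13.7%) and PT 40 ppm (8.51%), and 0 at FT 20 ppm (3.98%), MT 50 ppm (3.99%) and PT 20 ppm (5.91%). DESeq2 called 1 member, Gsta3 at FT 10 ppm (log2 difference 0.50, adjusted p = 0.041), where edgeR gave 0.49 (SE 0.15, adjusted p = 0.071), and limma on log2(CPM + 1) called 0 members at these doses. Gsta3 lay between 1868 and 3350 CPM in control mice (median 2425) and between 2538 and 3927 CPM at FT 10 ppm (median 3599). With pseudogene rows summed in, chosen after the values were seen, edgeR called 2 members at FT 10 ppm. These were Gstm3 (log2 difference 0.55, adjusted p = 0.029) and Gstm2 (0.76, adjusted p = 0.033), where the Gm6665 row alone also gave 0.76. The fitted level of Gsta3 and of Gsta4 was above control in all 11 dosed groups, and the control group had the lowest mean CPM of Gsta3, Gsta4 and Gstt1. All these comparisons share the same 7 control mice.

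**Figure D3:**
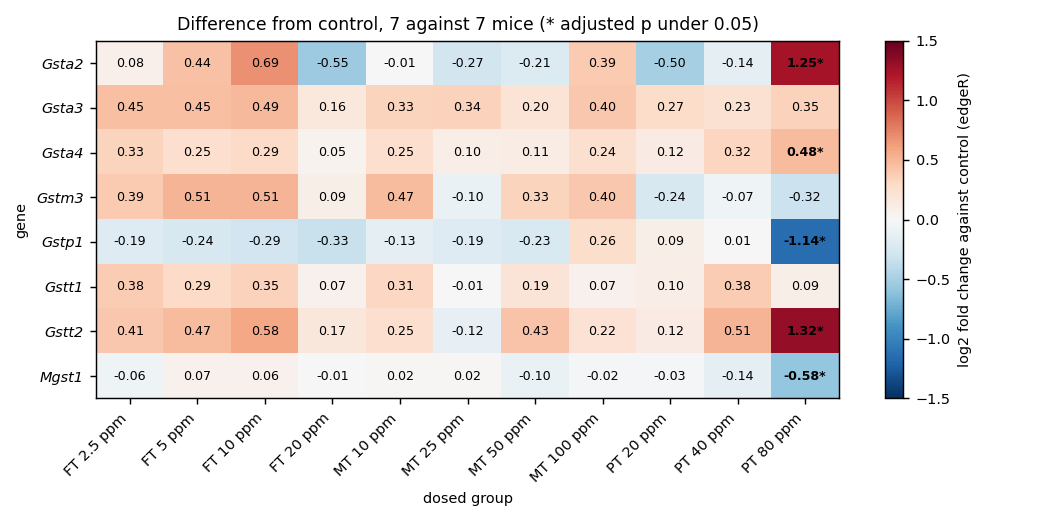
Log2 fold change of the 8 tested members against control in the 11 dosed groups (edgeR), red for higher and blue for lower, with an asterisk where the adjusted p was under 0.05. The 5 calls are all at PT 80 ppm, from -1.14 (Gstp1) to 1.32 (Gstt2).

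Over the doses of PT, the levels of the called members parted from control at 80 ppm. Gstt2 averaged 7.35 ± 3.73, 8.09 ± 3.32, 10.6 ± 3.55 and 18.8 ± 7.46 CPM (SD, n = 7) in control, PT 20, 40 and 80 ppm mice. Gsta2 averaged 2.95 ± 1.77, 2.28 ± 1.09, 2.93 ± 0.714 and 8.18 ± 3.24 CPM in the same order, and Gsta4 16.8 ± 4.52, 19.2 ± 4.54, 22.5 ± 4.36 and 26.3 ± 8.23 CPM. Gstt2 and Gsta4 means stepped upward at each dose, whereas the Gsta2 mean lay above control only at 80 ppm.

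Gstp1 averaged 1320 ± 415, 1520 ± 503, 1469 ± 253 and 728 ± 408 CPM in control, PT 20, 40 and 80 ppm mice, so the 2 lower doses lay at or above the control mean. Mgst1 averaged 4135 ± 676, 4234 ± 412, 4011 ± 406 and 3136 ± 761 CPM. At PT 20 and 40 ppm no member passed the test.

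The 4 members with a call in both PT 80 ppm comparisons had smaller log2 differences from control in the other groups. The log2 difference from control over the other 10 dosed groups ran from -0.14 (PT 40 ppm) to 0.07 (FT 5 ppm) for Mgst1, from -0.33 (FT 20 ppm) to 0.26 (MT 100 ppm) for Gstp1 and from -0.12 (MT 25 ppm) to 0.58 (FT 10 ppm) for Gstt2. For Gsta2 it ran from -0.55 (FT 20 ppm) to 0.69 (FT 10 ppm) and for Gsta4 from 0.05 (FT 20 ppm) to 0.33 (FT 2.5 ppm). The 3 members without a call reached larger differences outside PT 80 ppm than in it, up to 0.49 for Gsta3 and 0.51 for Gstm3 at FT 10 ppm and 0.38 for Gstt1 at PT 40 ppm, of which none passed the test. In the order of the 12 group means of CPM, the step between neighbours exceeded the larger of their SDs once for Gstt2, from FT 10 ppm (11.2) to PT 80 ppm (18.8), once for Mgst1, from PT 80 ppm (3136) to PT 40 ppm (4011), and at no step for the other 6 tested members.

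**Figure D4:**
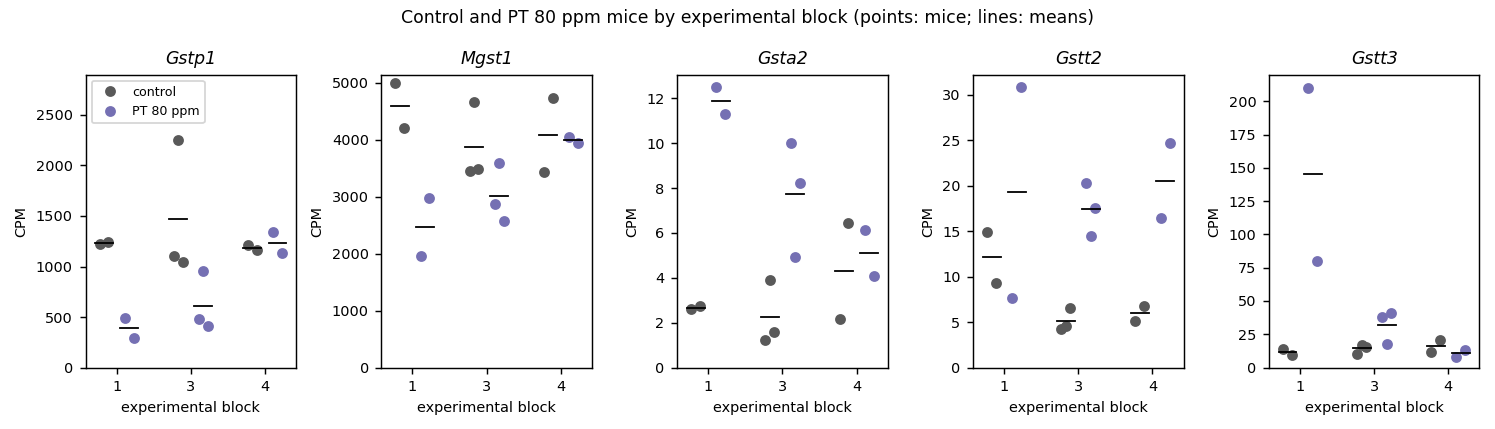
CPM of Gstp1, Mgst1, Gsta2, Gstt2 and the other theta-class gene Gstt3 in control (grey) and PT 80 ppm mice (purple) by experimental block, with points for mice and lines for means. In block 4 the PT 80 ppm mice lie at the level of control for Gstp1 and Mgst1 and above it for Gstt2.

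The PT 80 ppm values of Gstp1 and Mgst1 split by experimental block. In block 1, Gstp1 was at 491 and 292 CPM in the PT 80 ppm mice and 1227 and 1245 CPM in the control mice. In block 3 it was at 477, 953 and 411 CPM against 1105, 2248 and 1048 CPM, and in block 4 at 1340 and 1129 CPM against 1209 and 1159 CPM. Fitted within blocks 1, 3 and 4, the log2 difference was -1.76, -1.55 and 0.07. For Mgst1 it was -0.97, -0.60 and -0.18.

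A test of whether the PT 80 ppm difference varied between blocks, added after these values were seen, was past the threshold for Gstp1 (F = 8.91, adjusted p = 0.0048 by edgeR) and Mgst1 (F = 7.18, adjusted p = 0.013), 2 of the 8 members, against 19.5% of all genes. It did not pass for Gstt2 (adjusted p = 0.29), whose within-block log2 differences were 0.63, 1.43 and 1.66 in blocks 1, 3 and 4. It did not pass for Gsta2 either (adjusted p = 0.33), at 2.06, 1.44 and -0.02. All PT 80 ppm mice had RNA isolated at EA.

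The second question was whether members changed over the dose range of an OPP without the control mice. Between PT 20 and 80 ppm, 4 of 8 members differed, against 21.9% of all genes (11.4% higher, 10.4% lower, 3.42% with at least 2-fold). Gsta2 was 3.35-fold higher at PT 80 ppm (log2 difference 1.74, SE 0.32, adjusted p = 3e-05 by edgeR) and Gstt2 2.30-fold higher (1.2, SE 0.25, adjusted p = 0.00028). Gstp1 was 2.34-fold lower (-1.23, SE 0.21, adjusted p = 1.3e-05) and Mgst1 1.46-fold lower (-0.55, SE 0.10, adjusted p = 2.9e-05). With Gsta1 and Gsta2 summed the log2 difference was 0.72 (adjusted p = 0.11) and the joint test over all PT doses gave Gsta2 an adjusted p of 0.092, so these calls of Gsta2 also hold only for reads assigned to it. The same PT 80 ppm mice enter this comparison and the one with control, in which these 4 genes had the same directions.

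Between FT 2.5 and 20 ppm and between MT 10 and 100 ppm, 0 of 8 members passed the edgeR test, against 0% and 0.0384% of all genes. At an unadjusted p under 0.05, and by DESeq2 and limma on log2(CPM + 1), the count was also 0 for both, where 9.78% and 6.67% of all genes had such an unadjusted p. The joint test over all doses of 1 OPP called Gsta2, Gstp1, Gstt2 and Mgst1 for PT (4 of 8, against 19.6% of all genes). It called 0 of 8 for FT (against 0.0768%) and 0 of 8 for MT (against 0.0864%), and at an unadjusted p under 0.05 it gave 2 and 0 members, against 14.8% and 9.21% of all genes.

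The third question was whether OPPs differed at the same dietary dose, for which the design gives 2 pairs. Both FT and MT are dimethyl compounds, and between FT and MT at 10 ppm 0 of 8 members differed, against 0% of all genes. At an unadjusted p under 0.05, which 7.65% of all genes had, the only member was Gsta2, higher in FT by 0.70 on the log2 scale (95% interval 0.07 to 1.33, adjusted p = 0.62 by edgeR). The dimethyl FT and the diethyl PT at 20 ppm also gave 0 of 8 members against 0% of all genes, and 0 at an unadjusted p under 0.05, against 3.40%. There the log2 differences lay between -0.41 (Gstp1, 95% interval -0.84 to 0.01) and 0.33 (Gstm3, 95% interval -0.33 to 0.99). The intervals do not show that the OPPs act alike, since those of Gsta2 and Gstm3 hold differences of up to 1.33 at 10 ppm and 0.99 at 20 ppm on the log2 scale. DESeq2 and limma on log2(CPM + 1) also called 0 members in both pairs. No dimethyl OPP was given at 80 ppm, so the highest doses of FT (20 ppm), MT (100 ppm) and PT (80 ppm) stand side by side only. Gstp1 averaged 1082, 1566 and 728 CPM in those groups.

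Among the other GST genes, 11 of 19 listed were tested, and at PT 80 ppm Gstt3 and Gsto1 rose while Gstp2 fell, the last with Gstp1 as described above. Gstt3, a theta-class gene on chromosome 10 like Gstt1 and Gstt2, ranged from 9.57 to 21 CPM in control mice and from 7.87 to 210 CPM at PT 80 ppm (3.53-fold higher, log2 difference 1.82, SE 0.32, adjusted p = 1.7e-05 by edgeR). Its PT 80 ppm values were 210 and 80.4 CPM in block 1, 37.9, 17.8 and 40.6 CPM in block 3 and 7.87 and 13.5 CPM in block 4, and the difference varied between blocks (adjusted p = 9e-13). Gstt3 was high in block 1, where Gstp1 was low, and was not above control in block 4. Gsto1, an omega-class enzyme with thioltransferase activity, was 1.67-fold higher (log2 difference 0.74, adjusted p = 0.00013), and its difference also varied between blocks (adjusted p = 0.0062). The other 8 tested genes (Gsta1, Gstm4, Gstm5, Gstm6, Gstm7, Gstk1, Gstz1 and Hpgds) did not pass. Their log2 differences were all below 0, from -0.69 (Gstm6, adjusted p = 0.066) to -0.03 (Gsta1). Between PT 20 and 80 ppm Gstt3 and Gsto1 again rose and Gstp2 again fell, and the mu-class Gstm6 fell by 0.79 on the log2 scale (adjusted p = 0.025). At FT 10 ppm and MT 100 ppm 0 of the 11 passed the edgeR test, with 5 and 2 at an unadjusted p under 0.05, against 17.7% and 13.7% of all genes.

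Of 17 tested genes of glutathione synthesis and turnover, 5 rose at PT 80 ppm and 0 fell (list median 0.07 on the log2 scale, all genes 0.01). The counts of this and the other lists at PT 80 ppm stand against 9.75% of all genes called higher and 8.89% called lower. The 5 were Mat1a (3.3-fold, adjusted p = 1.1e-10 by edgeR), which makes S-adenosylmethionine, Cth (2.43-fold, adjusted p = 1.4e-05), which releases cysteine from cystathionine, the canalicular conjugate exporter Abcc2 (1.48-fold, adjusted p = 6.4e-05), the glutaredoxin Glrx (1.39-fold, adjusted p = 0.002) and the glycine methyltransferase Gnmt (1.61-fold, adjusted p = 0.0061). Both subunits of glutamate-cysteine ligase, Gclc and Gclm, were among the genes that did not pass. Of 21 other Nrf2 target genes, 3 rose and 5 fell, against the same 9.75% and 8.89% of all genes. The conjugate transporter Abcc3 rose 3.66-fold and the quinone reductase Nqo1 2.19-fold, whereas the pentose phosphate enzymes Taldo1, Pgd and Tkt fell by 0.46, 0.82 and 0.34 on the log2 scale. The list's median was -0.11.

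Of 16 transcription factors known to act on GST genes, 4 rose (Nr1i3, which encodes CAR, 3.43-fold, Nr1i2, which encodes PXR, 1.43-fold, Hnf4a 1.45-fold and Mafg 1.31-fold) and Keap1, the Nrf2 repressor, fell by 0.18 on the log2 scale (adjusted p = 0.048). Of 7 CAR and PXR target genes, 5 rose at PT 80 ppm, among them Por (5.04-fold) and Cyp2c29 (2.63-fold), and 3 rose at MT 100 ppm and 3 at FT 10 ppm, where 0.0768% and 1.57% of all genes were called in either direction. At MT 100 ppm Cyp2c29 was 5.82-fold higher (adjusted p = 5.8e-15) while no GST member passed. At FT 10 ppm the iron storage gene Fth1 rose by 0.30 and the male-biased complement gene C6 fell by 0.79, and apart from these and the CAR and PXR targets no gene of the lists other than cell markers passed at either dose. Of 12 male-biased liver genes, 8 fell at PT 80 ppm and 0 rose, and of 6 female-biased genes 6 rose and 0 fell. Among these Elovl3, an elongase of fatty acids, fell by 2.7 and the cytochrome gene Cyp4a12a by 1.31, and Fmo2, a flavin monooxygenase, rose by 4.56 on the log2 scale. The male-biased list had a median of -0.93 and the female-biased list one of 1.78.

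**Figure D5:**
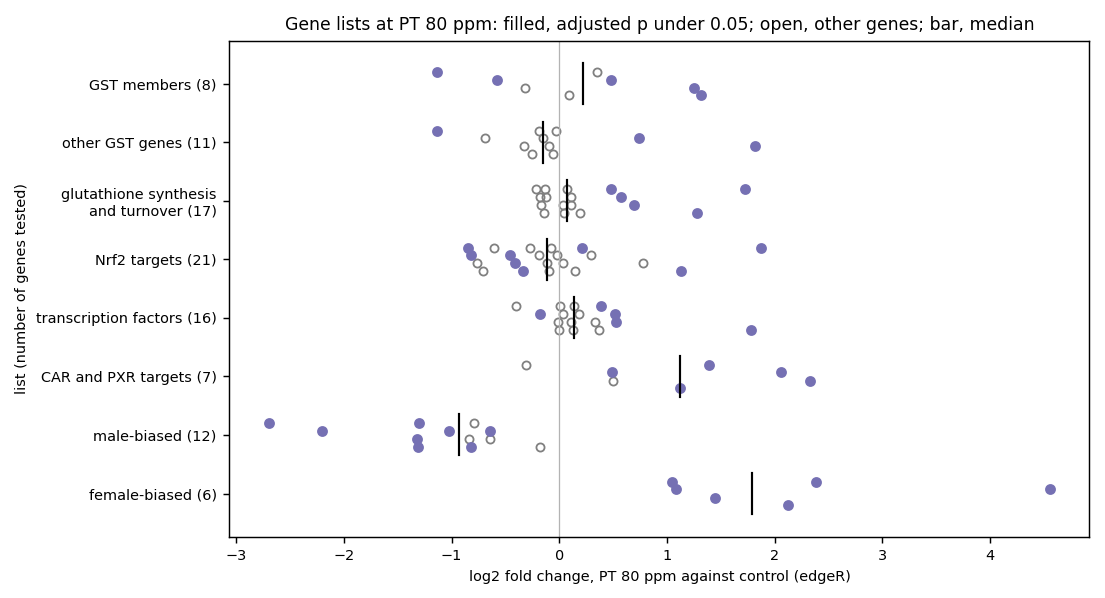
Log2 fold change between PT 80 ppm and control for the genes tested in each list (edgeR), filled where the adjusted p was under 0.05, with a bar at the list's median. The GST members spread to both sides of 0, whereas the male-biased genes lie below and the female-biased genes above it.

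Markers of other cell types moved with the PT 80 ppm group in part. Of 7 tested Kupffer cell and macrophage markers, 3 (Clec4f, Cd5l and Csf1r) fell and 0 rose, and the 8 markers summed to between 142 and 328 CPM in control mice and between 62.4 and 240 CPM at PT 80 ppm. The 8 hepatocyte markers summed to between 26787 and 53045 CPM and between 40615 and 61415 CPM, with 4 higher (Tat, Cyp2e1, Cps1 and Hnf4a). The 7 periportal markers summed to between 4605 and 7416 CPM and between 4157 and 17787 CPM, with 3 higher (Arg1, Hal and Sds) and 1 lower (Cyp2f2). The 6 bile duct markers summed to between 57.1 and 131 CPM and between 13.1 and 63.5 CPM, and the 1 tested (Spp1) fell. Among pericentral markers 1 of 6 tested rose (Slc1a2, summed list 1007 to 1291 and 616 to 1489 CPM), among stellate cell markers 1 of 5 (Dcn, 116 to 176 and 144 to 213 CPM), among sinusoidal endothelial markers 0 of 7, and of the lymphocyte and granulocyte markers the 1 tested in each list did not pass. The defining markers Epcam, Cd79a and Ngp were at or near 0. Their part in the GST differences was not tested.

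Each member was also described by the genes whose level ran most alike over the 84 mice, on log2(CPM + 1) after subtraction of block and RNA isolator, where all points share their libraries. Nearest to Mgst1 were the male-biased Cyp4a12a (Pearson's r = 0.87, and 0.85 over the 77 mice outside PT 80 ppm), Ces2e (0.83, and 0.66 without PT 80 ppm) and C8g (0.81, and 0.73). Nearest to Gstp1 were Gstp2 (1.00), the sterol carrier gene Scp2 (0.83, and 0.64 without PT 80 ppm) and Mup8 (0.76, and 0.74), a major urinary protein gene. The genes nearest to Gsta2 were Afmid (0.78), Hpd (0.75) and Macrod1 (0.73), at 0.68, 0.64 and 0.69 without PT 80 ppm, and Macrod1 was also among the nearest of Gsta3 (0.77, with Ces1d at 0.79 and Afmid at 0.75) and Gsta4 (0.77, with Aldh2 and Amdhd1 at 0.74). Nearest to Gstt2 were Retsat (0.79), Dpys and Hsd17b11 (0.78 each), at 0.70, 0.63 and 0.65 without PT 80 ppm. The nearest genes were for Gstt1 Uqcr11 (0.85), Ddt and Aldh7a1 (0.83 each), and for Gstm3 Aldh7a1 (0.72), Gstm6 and Ttr (0.70 each). For Gsta3, Gsta4, Gstt1 and Gstm3 these values lay between 0.67 and 0.89 without PT 80 ppm. Between members the highest value was 0.67, for Gsta4 and Gstt1. Gstp1 and Gsta2 gave -0.32 over all mice and 0.09 outside PT 80 ppm.

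The promoter windows of the members (RefSeq, GRCm38.p6, 250 bases before to 50 after each gene start) were searched on both strands for letters of factors on these lists. There were 10 windows for 8 of the 10 members, without Gsta4 and Gstt2. The antioxidant response core TGACNNNGC, bound by Nrf2, was in 12.4% of all 32851 windows and in 2 of the 10, 1 each of Gsta3 and Mgst1. The letters TTCNNNGAA, bound by STAT5, were in 8.3% of all windows and in 1 of the 10, the other window of Mgst1. The nuclear receptor core AGGTCA was in 16.3% of all windows and in 1 of the 10 (Gstm1). Both windows of Mgst1, a member that fell at PT 80 ppm, are printed for the matches, which stand in capitals. The first is on GRCm38.p6 chr6:138140277-138140576, plus strand, with the antioxidant core read on the opposite strand from position -56, and the second on chr6:138141337-138141636, plus strand, with the STAT5 letters from position 30, each counted from the gene start.
Mgst1, first window: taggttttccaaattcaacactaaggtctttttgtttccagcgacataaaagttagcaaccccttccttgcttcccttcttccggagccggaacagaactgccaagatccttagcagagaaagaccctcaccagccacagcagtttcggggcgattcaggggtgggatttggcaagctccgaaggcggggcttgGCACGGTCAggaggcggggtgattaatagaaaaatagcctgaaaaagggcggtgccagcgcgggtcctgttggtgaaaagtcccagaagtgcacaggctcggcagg
Mgst1, second window: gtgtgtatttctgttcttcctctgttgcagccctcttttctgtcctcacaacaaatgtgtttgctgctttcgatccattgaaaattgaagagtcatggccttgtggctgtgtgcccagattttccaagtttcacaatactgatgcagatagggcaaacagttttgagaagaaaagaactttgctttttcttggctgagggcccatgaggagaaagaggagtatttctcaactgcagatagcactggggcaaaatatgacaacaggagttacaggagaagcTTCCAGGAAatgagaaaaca
A match is a run of letters in this window and no evidence of binding in these livers. The windows of Gstp1 and Gsta2, the members with the largest fall and the larger alpha-class rise, held none of the 3 patterns as searched. The Gstp1 window does hold TGAGTCAGC, which fits the antioxidant core TGACNNNGC except for G in place of its inner C. Such variants of the patterns were not searched.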

How the data were processed

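Liver TempO-Seq of 84 mice in 12 groups of 7 was analysed, with groups, blocks and RNA isolators taken from the labels. The authors trimmed reads, aligned them to mm39 with STAR and estimated counts per Ensembl gene in Partek, and deposited these estimated counts without normalization. The authors also deposited log2 CPM values adjusted for block and isolator, listed among the units as a score. Every group mean there recurred in each of its blocks and isolators to within 5e-05 (43 combinations), so tests on these values served as an alternative only. A GENCODE annotation of GRCm39 (the mm39 assembly, another release) gave names and positions for 17660 of 17695 identifiers.

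Estimated counts were rounded. Genes with a median count above 8 (10415) were compared in 1 edgeR 4.0.16 quasi-likelihood model over all mice, with TMM normalization (factors 0.8461 to 1.131) and block and RNA isolator as covariates. Fold changes are from this fit and CPM values are on total counts. A gene was called at a Benjamini-Hochberg adjusted p under 0.05. Alternatives used DESeq2 1.42.0 and limma 3.58.1 (pseudocount 1) in R 4.3.3, no filter, no covariates, EA mice alone, single blocks, control and 1 OPP alone, summed near copies and each mouse left out. In simulated counts without block or isolator effects, the PT 80 ppm test called 86 of 100 genes changed by 1 on the log2 scale. It called 98 of 100 genes changed by 2, with 5 false calls among 10415 genes. Differences that vary between blocks were not simulated. Other steps used Python 3.11.15 with numpy 2.4.6, pandas 2.3.3 and matplotlib 3.10.9.

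At these depths 3 counts correspond to 0.196 to 0.432 CPM, which covers counting error only, since reads carry no molecular identifiers. Named genes were the 10 members, the 3 genes most correlated with each, and up to 4 called genes per direction of each list, those with the lowest adjusted p. The lists were other GST genes, glutathione synthesis and turnover, Nrf2 targets, transcription factors, CAR and PXR targets, male- and female-biased genes and cell type markers. Further genes named (Gclc, Gclm, Gnmt, the other GST genes without a call, the pseudogenes and the marker genes) were chosen after their values were seen. The members and lists were chosen with earlier results of these data known.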

Additional observations from a re-analysis of the deposited data

Results flagged for a closer look

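In 96 groups of 7 mice (8 members, 12 groups), 8 held a mouse far from the other 6 by Dixon's test, where chance alone gives about 1 in 20. For Gstp1 these were the highest control mouse at 2248 CPM (the others 1048 to 1245), the highest FT 2.5 ppm mouse at 2338 CPM (804 to 1349) and the lowest FT 5 ppm mouse at 773 CPM (1235 to 1450). For Gstt2 they were the highest mice of FT 10 ppm at 22.6 CPM (6.02 to 12), MT 25 ppm at 11.7 CPM (4.6 to 7.09) and MT 50 ppm at 20.7 CPM (4.64 to 9.86). For Gstm3 they were the highest mice of FT 2.5 ppm at 6.27 CPM (2.44 to 4.03) and PT 40 ppm at 4.95 CPM (1.57 to 2.59).

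The PT 80 ppm difference varied between experimental blocks for Gstp1 (F = 8.91) and Mgst1 (F = 7.18) by a test of the interaction with block in edgeR. By the same test it also varied for 19.5% of all tested genes, so it is not particular to these members.

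Rows of processed pseudogenes that share stretches with the members also differed from control (edgeR, adjusted p under 0.05). Gstp-ps, which shares stretches with Gstp1, had a log2 difference of -1.0 at PT 80 ppm. Gstm2-ps1, which shares stretches with Gstm1 and Gstm3, differed by 0.51 at PT 80 ppm. Gm6665, which shares stretches with Gstm2, differed by 0.76 at FT 10 ppm. Their source transcripts were not tested.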

How the results depend on the processing

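No paired analysis was possible because the labels give no replicate numbers shared between groups, and block is a term of the model. The count of called members was within 1.5 times that reported under 214 combinations of comparison and setting, mouse omissions apart, and differed under 19. At PT 80 ppm against control it was 3 in block 1, 3 in block 3 and 1 in block 4 alone, 3 with at least 2-fold asked for, and 4 to 6 when each of the 14 mice was left out. At PT 80 against PT 20 ppm it was 2 in block 4. At FT 10 ppm it was 1 by DESeq2 and 2 with pseudogene rows summed (Gstm2 and Gstm3), chosen after seeing the data. By limma on the adjusted values it was 4, 4, 3 and 1 at FT 2.5, 5, 10 and 20 ppm, 6, 1, 4 and 4 at MT 10, 25, 50 and 100 ppm, and 4 and 4 at PT 20 and 40 ppm, and by the F test on them 6 for FT and 8 for MT. Those values centre each group, block and isolator combination on its group mean. Log2 differences that turned sign at PT 80 ppm against control were Gsta2 (-0.02), Gsta3 (-0.16), Gstm3 (0.10) and Gstp1 (0.07) in block 4, Gstm3 (0.09) in block 3, Gstt1 (-0.13) in block 1, Gstt1 (-0.00) with EA mice alone, Gsta3 (-0.00) and Gstt1 (-0.07) on the adjusted values, and Gstm3 (0.69) with pseudogene rows summed. For the joint test over all PT doses, the value is that of the dose furthest from control, which can differ between settings. On the adjusted values it was -1.25 for Gsta2 and 0.62 for Gstp1, opposite to the sign reported. At PT 80 ppm the adjusted values gave 0.11 and -0.52 for these 2 genes, with the sign reported. Those that turned at FT 10 ppm on the adjusted values were Gsta2 (-0.84, adjusted p = 0.0017 by limma), Gstt1 (-0.55, adjusted p = 0.00069), Gsta3 (-0.13), Mgst1 (-0.09) and Gstp1 (0.18). At FT 10 ppm Gstm3 (-0.29), Mgst1 (-0.16), Gsta4 (-0.05) and Gstt1 (-0.04) turned in block 1, and Gsta2 (-0.82) and Gstp1 (0.28) in block 4. The causes were not tested. With each mouse left out, PT 80 ppm differences ran from 1.12 to 1.64 for Gsta2, -1.34 to -0.94 for Gstp1, 1.19 to 1.51 for Gstt2 and -0.66 to -0.49 for Mgst1, called each time, and from 0.35 to 0.57 for Gsta4 (9 of 14 called) and -0.00 to 0.21 for Gstt1. Gsta2 lost its call with Gsta1 summed in (0.80, adjusted p = 0.086), with Gsta1 and Gsta5 summed in (0.82) and on the adjusted values (0.11). Gsta4 lost its call with EA mice alone (0.44, adjusted p = 0.074) and with control and PT mice alone (0.47, adjusted p = 0.14), against 0.48 as reported. Between PT 20 and 80 ppm Gsta2 lost its call in block 3 (1.47, adjusted p = 0.062). Depth limits Gsta2 and Gstm3 most, with medians near 35.2 and 31.9 counts.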
